A study of Mus musculus with 16 samples.

Results

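The regions described here are stretches of chromatin that carried H3K27me3, trimethylation of lysine 27 on histone H3, in β cells of young mice and that were overlapped by a stretch called for the same mark in β cells of old mice. They were taken from the deposited region lists, 31187 young and 38007 old regions on the mm9 mouse genome. Of 29476 young regions on autosomes, the 500 widest were set aside, and 20149 of the remaining 28976 (69.5%) overlapped an old region by at least 1 bp. These are called shared regions below. The 8827 others are called young-only regions, and 16526 autosomal old regions that touched no young region are called old-only regions.

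The study compared sorted β cells from old and young mice by RNA, histone marks and CpG methylation. RNA came from MIP-GFP/Bl6 mice, in which green fluorescent protein is driven by an insulin promoter so that β cells can be sorted by flow cytometry, and chromatin and bisulfite material came from C57Bl6 mice. The young groups were 4 to 6 weeks old. By their labels, the 3 old RNA libraries came from mice of 15, 16 and 17 months, and the other old samples from mice of 16 to 18 months. The submitters' design text gives another range, 18 to 22 months, for the old bisulfite pool. Each RNA library came from a pool of 5 to 10 mice, so a library is an average over animals. RNA was analysed here in 3 old and 2 young libraries, and H3K27me3, H3K4me1 and CpG methylation in 1 library per age, while H3K27ac, a mark of active enhancers and promoters, was held for young cells only. For old H3K27me3 the design text speaks of 2 replicas, pools of 4 to 7 mice, and the files do not show if the 1 deposited list combines both.

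As background, H3K27me3 is written by Polycomb repressive complex 2 (PRC2), whose catalytic subunit is Ezh2 or Ezh1, and is bound by Polycomb repressive complex 1 (PRC1), which compacts chromatin and keeps genes silent. In differentiated cells the mark forms broad domains over CpG-rich starts of developmental regulators that belong to other lineages, and it also spreads at low CpG density between genes. Dense CpG islands under Polycomb usually lack DNA methylation. In β cells, Polycomb holds down genes of progenitors and of other pancreatic cells, and H3K4me1, which marks enhancers and the flanks of promoters, can lie beside it at poised elements.

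Gene counts per RNA library ranged from 23559908 to 33562822 in old cells, and were 6377619 and 12892123 in the young libraries, named here by depth as shallower and deeper. Levels are CPM, gene counts scaled to the library's total. The summed level of 10 β-cell markers was 332566 and 275324 CPM in the young and 330328, 332348 and 389336 CPM in the old libraries. Markers of other cells were higher in the young libraries for nearly every gene. All 9 α-cell markers had a higher mean in young cells (summed 2173 and 34012 CPM in young, 943 to 1829 CPM in old), as did all 13 acinar (1508 and 2325 against 78.2 to 128 CPM), all 10 endothelial (530 and 900 against 44.3 to 81.2 CPM), all 10 stellate and fibroblast (347 and 3939 against 6.08 to 9.71 CPM) and all 9 immune markers (188 and 292 against 20.3 to 36.1 CPM). The same held for 7 of 8 δ- and PP-cell markers (3417 and 10362 against 233 to 430 CPM) and 6 of 8 duct markers (480 and 402 against 131 to 165 CPM). The defining acinar genes Amy2a5 and Ptf1a and the δ-list gene Pou3f1 had no count in any old library. In bulk RNA, fewer cells of a type and less RNA per cell cannot be told apart. The part of such cells in the RNA results below was not tested. Counts given below without their markers take out the listed genes only, so they cannot decide it. Xist, the transcript of the inactive X chromosome, stood at 318 and 631 CPM in the young and 2.46 to 3.16 CPM in the old libraries. The sex of the RNA pools is not given in the labels, so sex and age cannot be told apart in them, and the regions are autosomal by their definition.

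The promoters of 6 genes that start in shared regions are printed as examples that differ in CpG count. They are the 250 bases before the RefSeq start in GRCm38.p6, printed 5′ to 3′ in the direction of the gene with each CG in capitals, and were chosen after the values were seen. Neurog3 (chr10:62132840-62133089, + strand, 18 CpGs) drives endocrine progenitors, Hhex (chr19:37434591-37434840, + strand, 32 CpGs) specifies δ cells, and Gad1 (chr2:70561879-70562128, + strand, 17 CpGs) makes the transmitter GABA. Gcg (chr2:62483654-62483903, − strand, 7 CpGs) encodes glucagon, Ppy (chr11:102101320-102101569, − strand, 4 CpGs) pancreatic polypeptide, and Trpm5 (chr7:143094643-143094892, − strand, 4 CpGs) a cation channel of taste cells and β cells.
Neurog3: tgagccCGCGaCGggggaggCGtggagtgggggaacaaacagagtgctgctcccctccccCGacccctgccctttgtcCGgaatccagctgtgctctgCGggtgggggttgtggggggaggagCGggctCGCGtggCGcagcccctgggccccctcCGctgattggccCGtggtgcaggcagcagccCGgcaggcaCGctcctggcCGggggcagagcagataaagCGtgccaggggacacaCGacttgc
Hhex: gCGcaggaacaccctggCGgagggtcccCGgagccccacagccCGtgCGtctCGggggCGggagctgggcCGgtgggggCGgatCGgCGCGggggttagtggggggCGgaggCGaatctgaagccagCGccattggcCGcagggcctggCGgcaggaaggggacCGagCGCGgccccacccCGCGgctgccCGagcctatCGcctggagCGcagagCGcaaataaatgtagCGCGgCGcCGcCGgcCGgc
Gad1: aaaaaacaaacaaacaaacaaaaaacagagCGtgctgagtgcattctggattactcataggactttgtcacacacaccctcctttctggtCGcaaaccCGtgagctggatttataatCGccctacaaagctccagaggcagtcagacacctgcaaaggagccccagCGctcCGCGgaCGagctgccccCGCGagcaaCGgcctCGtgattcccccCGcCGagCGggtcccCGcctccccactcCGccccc
Gcg: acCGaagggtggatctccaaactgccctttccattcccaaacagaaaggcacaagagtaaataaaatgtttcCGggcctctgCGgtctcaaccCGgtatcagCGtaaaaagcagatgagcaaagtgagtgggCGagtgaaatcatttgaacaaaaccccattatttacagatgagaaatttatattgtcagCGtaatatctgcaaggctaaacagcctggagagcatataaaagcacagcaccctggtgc
Ppy: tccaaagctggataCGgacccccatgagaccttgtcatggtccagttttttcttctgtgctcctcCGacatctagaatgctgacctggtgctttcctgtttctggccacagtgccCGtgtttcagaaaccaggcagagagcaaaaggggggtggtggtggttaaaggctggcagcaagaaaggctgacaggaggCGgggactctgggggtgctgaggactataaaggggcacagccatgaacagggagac
Trpm5: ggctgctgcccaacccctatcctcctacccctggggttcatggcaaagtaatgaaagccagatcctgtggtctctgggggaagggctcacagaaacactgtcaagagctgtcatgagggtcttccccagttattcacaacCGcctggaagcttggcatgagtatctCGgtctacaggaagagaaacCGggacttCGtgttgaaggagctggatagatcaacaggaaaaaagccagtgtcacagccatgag
Over the 2942 of 4406 genes with a start in a shared region that matched the RefSeq promoter table by symbol, these 250 bases held a median of 7 CpGs, against 6 over all 27025 genes in the table. At least 10 CpGs were found in 42.0% of them against 38.2% of all, and 2 or fewer in 20.6% against 29.6%. The printed set runs from 4 CpGs in Ppy and Trpm5 to 32 in Hhex and holds no promoter with 2 or fewer. Gcg, with 7, stood at the median of the matched genes. All other coordinates below are those of mm9 as deposited.

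Shared regions were mostly of moderate width. Their borders lay on a 1 kb grid, the narrowest was 5 kb, the middle 50% ran from 7 to 18 kb around a median of 10 kb, and together they covered 303 Mb. The cut at the 500 widest fell at 74 kb: 14 regions had that width, of which 9 were left out and 5 kept, and all 500 regions left out also overlapped an old region. Old regions covered 82.7% of the bases of shared regions. They covered 10124 regions (50.2%) in full and 88.8% of regions over at least 50% of their width, while 54 regions were covered over less than 10%. The smallest overlap was 1000 bp, in 408 regions. Shared regions were richer in CpGs than young-only regions, with a median of 0.933 against 0.58 CpGs per 100 bp, and old-only regions held 0.9. Their median deposited score, used only to rank regions within the young list, was 78.9 against 74.5 in young-only regions. With 1 library per age, none of these shares has a replicate check.

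Shared regions held more gene starts per megabase than young-only regions. Of the 20149 regions, 3716 (18.4%) held at least 1 transcript start, 3181 of them 1 start and 535 at least 2, against 5.61% of young-only and 10.3% of old-only regions. Per megabase, shared regions held 14.5 starts, young-only regions 7.61 and old-only regions 13.9. In all, 4406 of 21530 autosomal genes with a single listed position (20.5%) started in a shared region, and for 4064 of them the start itself also lay in an old region.

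The genes that start in shared regions included many regulators of development and few genes of β-cell identity. The lists used were chosen with earlier results of these data known, and their shares are set beside the 20.5% of all genes. Of 30 positioned genes for morphogen antagonists and receptors, 25 (83.3%) started in a shared region, among them Shh, Ihh and Dhh, the hedgehog ligands, Nog and Chrd, which block BMPs, Gli1, Gli2 and Gli3, and Notch1, Notch2 and Notch3. Of 40 neural and mesodermal lineage regulators, 26 (65.0%) did, among them T (brachyury), Eomes and Myf5, and 12 more started in the widest regions. Of 18 regulators of other islet cells and progenitors, 11 (61.1%) did: Gata4, Gata6, Hhex, Neurog3, Nr5a2, Onecut2, Pax4, Ptf1a, Sox9, Sox11 and Sox17. Of 22 transcription factors of mature β cells, only Esrrg did, and 2 more started in the widest regions. Of 10 β-cell markers none started in a shared region. Pdx1 and Ins1 started in old-only regions, and Neurod1, Nkx2-2, Pax6, Isl1 and Slc2a2 in none. Cdkn2a, a cell cycle inhibitor gene known as a Polycomb target in β cells, started in a shared region.

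Gene families fell on different sides of the width cut. All 39 Hox genes, which pattern the body axis, all 6 Irx genes and all 4 positioned Zic genes started in the 500 widest regions and are therefore not members. Signalling families differed in their share: 13 of 19 Wnt, 7 of 10 Bmp, 13 of 20 Fgf and 14 of 21 Eph and ephrin genes started in shared regions, but 3 of 10 Fzd (Wnt receptor), 4 of 10 Gdf and 9 of 20 semaphorin genes. Of transcription factor genes, 6 of 8 Lhx, 4 of 6 Dlx and 4 of 5 Gata genes did, and of other families 28 of 41 collagens, 14 of 23 cadherins and 45 of 91 potassium channel genes (49.5%). Fox genes were split, with 16 of 42 in shared and 9 in the widest regions. At the low end stood zinc finger genes of the Zfp series (26 of 351, 7.41%) and ribosomal protein genes (4 of 86), and solute carriers were near the background (81 of 315, 25.7%).

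RNA of the genes in shared regions was low in old cells and higher in young cells. Of all 4406 genes, 3371 had a higher mean CPM in the young, 656 in the old libraries, and 379 had no count in any library. Over all 21530 positioned genes the same counts were 12564, 7356 and 1610. A level of at least 1 CPM was reached by 59.4% and 46.6% of the 4406 genes in the shallower and deeper young library, and by 23.6%, 24.0% and 21.9% in the old libraries 1 to 3. Among genes that start in no H3K27me3 region of either list, these shares were 75.6% and 71.9% in young and 70.4%, 69.5% and 69.5% in old cells. The median level over all 4406 genes was 2.04 and 0.621 CPM in young and 0.0375, 0.0596 and 0.0424 CPM in old libraries, so the groups did not overlap. Their summed level was 47267 and 89910 CPM in young and 20072, 21480 and 19461 CPM in old libraries.

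In the fit over all genes, edgeR's quasi-likelihood test was run on 15544 genes, of which 7.93% fell and 3.17% rose in old cells at an adjusted p under 0.05. Of the 4406 genes, 2333 passed the filter on low counts, and of these 594 (25.5%) fell, 20 (0.857%) rose and 1719 were not called. The median log2 change of the 2333 was -2.92, the middle 50% ran from -4.89 to -0.63, and 82.7% were negative, beside a median of -0.05 over all 15544. For all 594 genes that fell and all 20 that rose, the young and old libraries did not overlap. The same held for 1201 of 1203 falls and all 458 rises over all positioned genes, so it was not particular to shared regions. Of the 2333 genes, 1373 were below 1 CPM in at least 2 old libraries. Such genes could enter the test through their young level, so the counts over tested genes are a description. The other 960 had a median of -0.61, with 163 that fell and 20 that rose, beside a median of 0.18, 467 falls and 458 rises over the 11883 positioned genes held to the same level. For 54 genes that fell, no old library had a count, and for 1 that rose (Fut1) no young library had. Without the genes of the marker lists for other cell types, an alternative added after seeing the data, 569 of 2305 tested genes (24.7%) fell and 20 rose. The number that fell rested on library number: it was 164, 224 and 141 without old library 1, 2 or 3. These were 7.68%, 10.7% and 6.45% of tested genes in shared regions, beside 1.95%, 2.63% and 1.81% of all genes tested. Without the shallower or the deeper young library, the median log2 change of tested genes in shared regions was -2.61 and -2.99. A lone young library was then assumed to vary like the old ones. Of 63 genes named by the rule that fell, 24 kept their call when each library was left out in turn, and 36, 26 and 36 lost it without old library 1, 2 or 3.

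**Figure D1:**
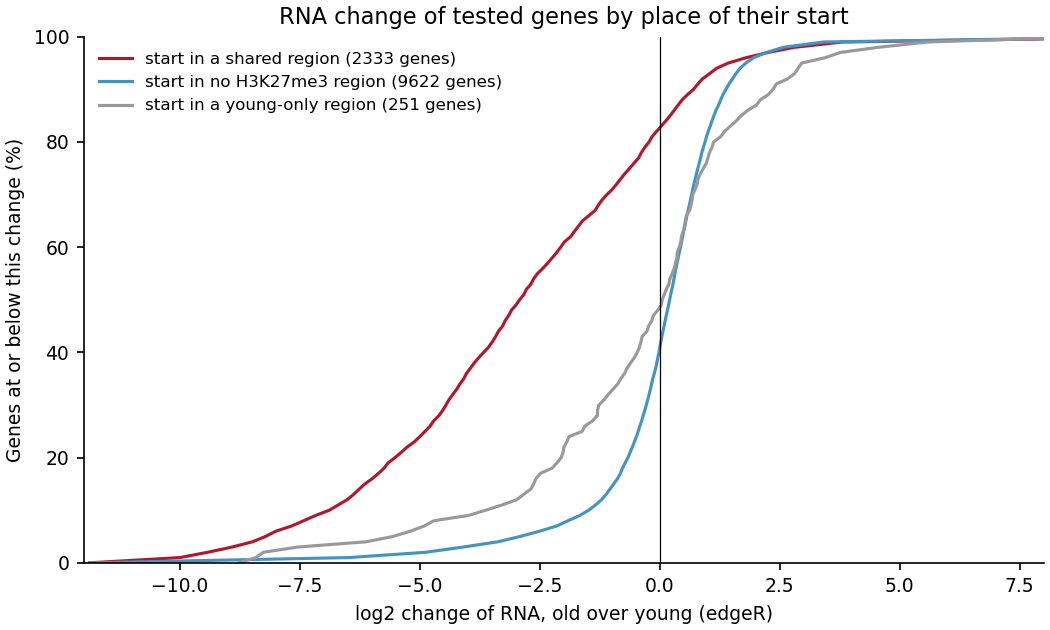
Cumulative share of tested genes (vertical axis, %) at or below a given log2 change of RNA, old over young (horizontal axis), for genes that start in shared regions, in no H3K27me3 region and in young-only regions. The curve of the 2333 genes in shared regions lies to the left of the others, with a median of -2.92 against 0.21 and 0.05.

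The RNA change was also read by the place of the start relative to both lists. Genes in no region had a median of 0.21, with 275 that fell (2.86%) and 378 that rose among 9622 tested. Genes in young-only regions had a median of 0.05, with 17 that fell and 26 that rose among 251. Genes in the 500 widest regions had a median of -2.88, with 63 falls (25.8%) and 1 rise among 244 tested, close to that of shared regions. Genes with a start in an old but no young region had a median of -0.45, with 254 falls (10.1%) and 33 rises among 2509. Within shared regions, the 342 genes whose start lay in the young region but outside the overlapping old one had a median of -0.06, with 12 falls (6.78%) and 5 rises among 177 tested. The 4064 genes whose start lay in both had a median of -3.15, with 582 falls (26.99%) and 15 rises among 2156. Of these 2156, 1337 were below 1 CPM in at least 2 old libraries and could enter the test through their young level. Held to at least 1 CPM in 2 old libraries, the 819 others had a median of -0.82, with 156 falls and 15 rises. Under the same limit the median was 0.36 for 141 genes with a start outside the old region (7 falls), 0.28 for 8688 genes in no region (150 falls) and 0.44 for 183 in young-only regions (7 falls). It was -0.73 for 90 genes in the widest regions (17 falls) and -0.19 for 1962 with a start in an old but no young region (130 falls). The difference between these classes was not tested. The 159 genes with a young H3K27ac region within 2 kb of the start had a median of -0.06, with 7 falls (4.61%) and 4 rises among 152 tested. By CpG density within 500 bp of the start, 24.1%, 25.5% and 26.1% of tested genes fell at under 2, 2 to 5, and at least 5 CpGs per 100 bp. With an H3K4me1 peak of the young list within 2 kb of the start, 25.2% of 1619 tested genes fell, and without such a peak 26.1% of 714.

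Among regulators of other islet cells and progenitors, 4 of 9 tested members in shared regions fell, none rose, and the median log2 change was -3.65. Hhex stood at 14.7 and 20.5 CPM in young and 2.62, 0.358 and 0.849 CPM in old cells, and fell (log2 change -3.65, SE 0.92, edgeR adjusted p 0.0427). Sox9, which marks ducts and progenitors, stood at 49.5 and 15.7 CPM in young and 0.0375, 1.73 and 0.0424 CPM in old cells (log2 change -5.58, SE 1.42, adjusted p 0.0438). Old library 2 was the highest of the old libraries for Sox9, and the groups did not overlap for either gene. Onecut2, a liver and pancreas homeobox factor, stood at 44.5 and 21.6 CPM in young and 1.42, 2.03 and 2.33 CPM in old cells (log2 change -3.93, SE 0.58, adjusted p 0.00949). Nr5a2, needed in acinar cells, stood at 12.9 and 6.67 CPM in young and 0.337, 0.119 and 0.127 CPM in old cells (log2 change -5.47). These calls were close to the threshold: without old library 3 the adjusted p was 0.133 for Hhex, 0.119 for Sox9 and 0.0819 for Nr5a2, and without the shallower young library it was 0.0572 for Sox9. The groups were separate for Onecut2 and Nr5a2, as they were for Neurog3, whose difference did not pass the test: 7.68 and 4.19 CPM in young and 0.600, 0.685 and 0.212 CPM in old cells, with a log2 change of -3.42 (SE 1.10, adjusted p 0.0812). With DESeq2 its adjusted p was 0.00728, and with edgeR without the deeper young library 0.0408.

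Gata6, a regulator of pancreas formation, stood at 18.0 and 27.5 CPM in young and 11.5, 7.39 and 7.60 CPM in old cells (log2 change -1.22, adjusted p 0.141 with edgeR, 0.0367 with DESeq2 and 0.0412 with edgeR without the shallower young library), and Gata4 had a log2 change of -1.82 (adjusted p 0.341). Pax4, which sets β- over α-cell fate in progenitors, had 251 counts in young cells, all in the shallower library (39.4 CPM), and 2 in old cells, and did not pass the filter. Of the fetal growth genes Lin28b, Hmga2 and Igf2bp1, which most adult tissues keep silent, none was called. Lin28b stood at 1.25 and 1.47 CPM in young and 0, 0.0298 and 0.0424 CPM in old cells (log2 change -5.35, adjusted p 0.0865). Hmga2 and Igf2bp1 had 11.8 and 4.55 CPM in the shallower and 0 in the deeper young library, with 3 and 1 counts over the old libraries, and neither was tested. Cdkn2a had 2 counts in young and 11 in old cells, too few for a test.

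Of the 26 neural and mesodermal lineage regulators in shared regions, 7 passed the filter and none was called in either direction. Of the 25 morphogen antagonists and receptors, 16 were tested, 7 fell (Dhh, Dkk3, Jag1, Notch2, Notch3, Sfrp2 and Sfrp5) and none rose, with a median of -3.75. Notch2, a receptor of duct and progenitor cells, stood at 83.4 and 66.8 CPM in young and 5.89, 11.4 and 7.98 CPM in old cells (log2 change -2.999, SE 0.40, adjusted p 0.00662). Notch3, a receptor of vascular mural cells, stood at 62.9 and 95.3 CPM in young and 3.15, 1.01 and 2.97 CPM in old cells (log2 change -4.89, SE 0.56, adjusted p 0.00522). The groups were far apart for both receptors, and both calls were kept when each of the 5 libraries was left out in turn. Dkk3, a secreted protein of the Dickkopf family of Wnt modulators, stood at 1.72 and 43.9 CPM in young and 0.0375, 0.0596 and 0 CPM in old cells (log2 change -8.99), so its young level came mainly from the deeper library.

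Growth factor signalling genes fell for 7 of 11 tested members in shared regions (Fgfr2, Fgfr3, Igf1, Igfbp3, Igfbp4, Pdgfra and Pdgfrb), with a median of -3.92 and no rise. Pdgfra, the receptor of platelet-derived growth factor and a fibroblast marker, had 480 counts in young and 1 in old cells, at 1.57 and 36.5 CPM in the young libraries. Pdgfrb, its paralog on pericytes, stood at 42.6 and 51.1 CPM in young and 4.39, 3.07 and 1.02 CPM in old cells (log2 change -3.92, SE 0.60, adjusted p 0.0103). Genes that β cells are known to keep low for secretion to stay tied to glucose fell for 10 of 12 tested members, with a median of -6.48. They were Gas1, Hk1, Igfbp4, Ldha, Maf, Ndrg2, Pdgfra, Rest, Slc16a1 and Zfp36l1, while Smad3 and Yap1 were not called. Hk1, the low-threshold hexokinase, stood at 38.7 and 13.3 CPM in young and 0.150, 0.179 and 0.679 CPM in old cells (log2 change -6.08, SE 0.97, adjusted p 0.0118). Ndrg2 stood at 20.2 and 38.2 CPM in young and 0.150, 0.268 and 0 CPM in old cells. Pdgfra and Igfbp4 are counted in more than 1 of these lists. The summed markers of stellate cells and fibroblasts, where several of these genes are also abundant, stood higher in young cells as given above, and their part in these falls was not tested.

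Hormones and markers of neighbouring cells were among the members. Gcg, the α-cell hormone glucagon, was in a shared region and stood at 1766 and 32655 CPM in young and 682, 1453 and 1346 CPM in old cells. It fell (log2 change -3.71, SE 0.94, edgeR adjusted p 0.0432), but without the deeper young library the change was -0.44 with an adjusted p of 0.412. Ppy stood at 920 and 1695 CPM in young and 50.7, 157 and 89.9 CPM in old cells (log2 change -3.56, SE 0.47, adjusted p 0.00672). Its neighbour Pyy, peptide YY, stood at 745 and 2676 CPM in young and 101.9, 190 and 183 CPM in old cells (log2 change -3.26, SE 0.52, adjusted p 0.0120). The old libraries were below both young ones for each hormone. All 5 δ- and PP-list members in shared regions fell (Ghsr, Hhex, Ppy, Pyy and Rbp4), as did 5 of 6 tested acinar (among them Cel, Cela2a and Pnlip), 4 of 4 endothelial (Cdh5, Kdr, Plvap and Tie1) and 7 of 7 stellate and fibroblast markers (median -8.65). Col1a1, the main fibrillar collagen of fibroblasts, stood at 57.1 and 1475 CPM in young and 1.09, 0.417 and 0.679 CPM in old cells (log2 change -9.89, SE 1.30, adjusted p 0.00662). Cdh5, the cadherin of endothelial junctions, stood at 72.4 and 164 CPM in young and 11.6, 8.79 and 8.36 CPM in old cells (log2 change -3.47). Of all 41 positioned collagens, 28 started in shared regions, and of 25 tested 13 fell and none rose (median -4.46). These falls were not particular to shared regions. Wherever they start, 22 of 40 tested collagens fell (median -4.26). So did 6 of 6 tested δ- and PP-list, 9 of 11 acinar, 10 of 10 endothelial and 9 of 9 stellate and fibroblast markers. Fewer were called among α-cell (2 of 9), immune (4 of 9) and duct markers (4 of 8).

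Adhesion, guidance and transport families are set beside all tested genes in shared regions, of which 25.5% fell and 0.857% rose. Semaphorins and cadherins lay above that share of falls, potassium channels near it, and Eph and ephrin genes and solute carriers below it. No family was tested against it. Of 8 tested semaphorins, which guide axons and vessels, 3 fell (Sema3f, Sema5a and Sema6a), and Sema5a stood at 40.9 and 82.0 CPM in young and 1.76, 1.13 and 1.49 CPM in old cells (log2 change -5.23, SE 0.49, adjusted p 0.00384). Of 10 tested cadherins 4 fell (Cdh3, Cdh5, Cdh6 and Cdh13), and of 12 tested Eph and ephrin genes 2 fell (Epha3 and Epha4). Of 26 tested potassium channel genes, 7 fell (Kcnc2, Kcne3, Kcng4, Kcnh7, Kcnk2, Kcnk3 and Kcnt2) and 2 rose (Kcnh5 and Kcnj5). Of 41 tested solute carriers 7 fell, among them Slc5a1, the intestinal sodium and glucose transporter, at 66.8 and 12.3 CPM in young and 0, 0.0894 and 0 CPM in old cells (log2 change -9.80, SE 1.22, adjusted p 0.00554). Some genes with large falls had no count in old cells, so 3 counts over the old group stand in for the old level and the fold is a lower limit. E2f8, a cell cycle repressor, stood at 9.56 and 18.3 CPM in young cells and was at least 430-fold lower in old. Dio2, which activates thyroid hormone, stood at 27.3 and 8.69 CPM and was at least 415-fold lower. Clca3 stood at 42.3 and 7.21 CPM and was at least 526-fold lower, and Pax1, a skeletal patterning factor, at 11.6 and 2.56 CPM and at least 155-fold lower. The calls of E2f8, Dio2 and Clca3 were kept when each of the 5 libraries was left out in turn, whereas that of Pax1 was lost without the shallower young library (edgeR adjusted p 0.0567) and without old library 1, 2 or 3 (0.0726, 0.0628 and 0.0761).

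Polycomb subunit genes started in shared regions in 1 of 11 positioned cases for PRC2 (9.09%) and 4 of 21 for PRC1 (19.05%), beside 20.5% of all genes. The PRC2 gene was Phf19, which targets the complex to CpG islands and stood at 61.0 and 2.48 CPM in young and 0.675, 0.119 and 1.36 CPM in old cells. It fell (log2 change -5.29, edgeR adjusted p 0.0459), and without the shallower young library the change was -1.58 with an adjusted p of 0.527. The PRC1 genes include Cbx2 and Pcgf1, and none of the 4 was called.

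The 20 genes in shared regions that rose were named in full after their values were seen: Fut1, Adm2, Rph3a, Kcnh5, Tmem59l, Trnp1, Mpp6, Scrt1, Nrcam, Ikzf3, Gad1, Pcdhac2, Kcnj5, Ndufa9, Exosc3, Trmt61a, Esrrg, Trpm5, Mettl9 and Ric3. Gad1, which lies at chr2:70400221-70440069 on mm9, stood at 17.1 and 23.4 CPM in young and 100.9, 94.0 and 99.4 CPM in old cells (log2 change 2.43, SE 0.30, adjusted p 0.00545). Its groups were far apart, and its call was the only 1 of the 20 kept when each of the 5 libraries was left out in turn. Without old library 1, 2 or 3, 14, 16 and 19 of the 20 calls were lost, and without either young library none was.

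The values of some of the 20 are as follows, and no theme was tested among them. Scrt1, a neuronal zinc finger repressor, stood at 5.80 and 7.21 CPM in young and 32.8, 57.1 and 57.5 CPM in old cells (log2 change 3.08, SE 0.46, adjusted p 0.00949). Rph3a, which binds Rab proteins on secretory vesicles, stood at 5.49 and 0.543 CPM in young and 88.0, 86.1 and 85.1 CPM in old cells (log2 change 5.11). The 3 old libraries lay close together for Rph3a, and the young ones differed by a wide margin. Kcnj5, a G-protein-gated potassium channel, stood at 6.59 and 16.8 CPM in young and 55.6, 47.1 and 49.6 CPM in old cells (log2 change 2.27, SE 0.46, adjusted p 0.0247). Esrrg, a nuclear receptor of mature β cells, stood at 5.80 and 8.45 CPM in young and 26.996, 27.8 and 24.2 CPM in old cells (log2 change 2.03, SE 0.44, adjusted p 0.0287). Trpm5 stood at 64.8 and 82.8 CPM in young and 167, 178 and 168 CPM in old cells (log2 change 1.37, SE 0.24, adjusted p 0.0163). No library of one age overlapped the other age for these genes. Ikzf3, a lymphoid zinc finger factor, stood at 2.20 and 9.46 CPM in young and 27.9, 31.9 and 36.4 CPM in old cells (log2 change 2.60). Pcdhac2 stood at 8.47 and 36.2 CPM in young and 106, 124 and 95.2 CPM in old cells (log2 change 2.42), and as it shares exons with its protocadherin cluster its counts are uncertain. Fut1 had no count in young and 969 in old cells, at 5.29, 15.3 and 13.4 CPM, and was at least 74.3-fold higher. The starts of Mettl9, Mpp6, Ndufa9, Ric3 and Rph3a lay outside the old region, and those of Exosc3, Gad1, Mettl9 and Trmt61a had a young H3K27ac region within 2 kb.

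**Figure D2:**
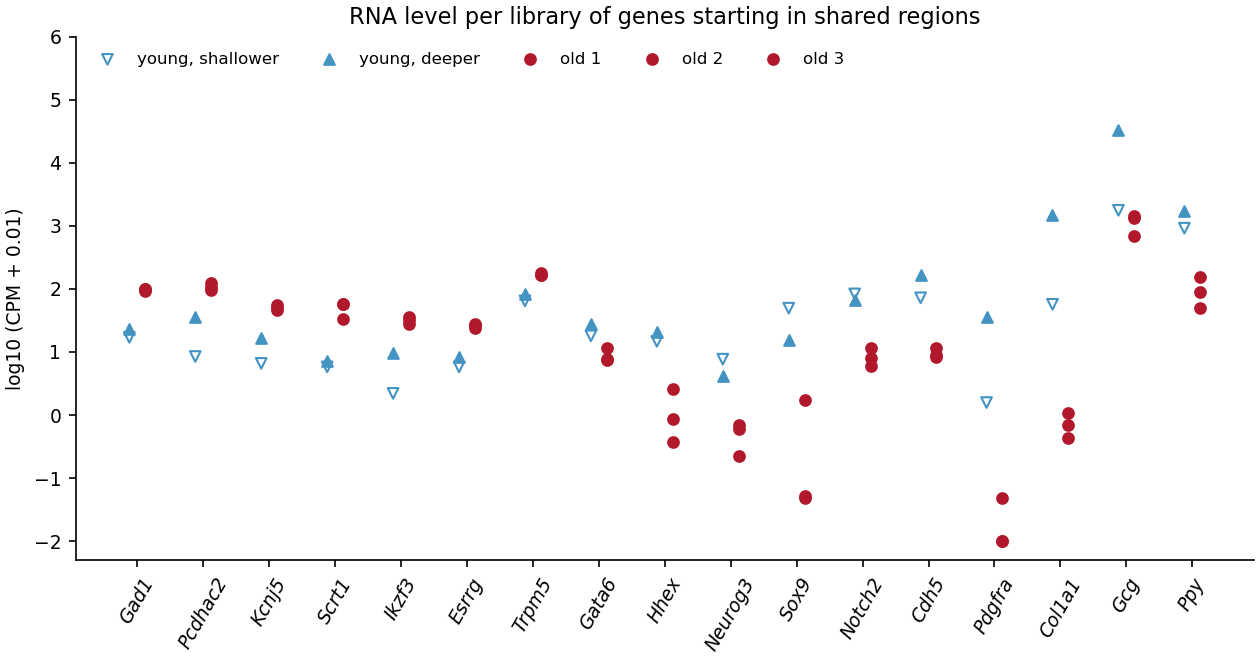
RNA level per library, as log10 of CPM plus 0.01 (vertical axis), of 17 genes that start in shared regions (horizontal axis), with open and filled triangles for the shallower and deeper young library and circles for the 3 old libraries. Gad1 to Trpm5 are higher in every old library, and Gata6 to Ppy, which include Gata6 and Neurog3 that did not pass the test, are higher in both young libraries.

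CpG methylation of shared regions differed little between the young and the old library. Levels are methylated calls over all calls, summed over CpGs with 5 to 100 reads in both libraries, and Fisher's exact test per region compares these 2 libraries, not the ages. The median level was 76.6% in the young and 76.2% in the old library, the median difference was 0.085 percentage points (-0.604 with the mean of CpG fractions), and 90% of regions lay between -7.12 and 7.23 points. A shared region had a median of 83 tested CpGs with 1716 calls in the young and 1886 in the old library. Of 20143 regions tested, 344 (1.71%) were higher and 361 (1.79%) lower in the old library by at least 10 points at an adjusted p under 0.05, beside 2.59% and 2.73% over all 45923 regions tested. The 6 other shared regions had too few CpGs. In young-only regions, with a median of 29 tested CpGs, 5.04% were higher and 5.82% lower.

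The called regions were narrow, CpG-poor and thinly sampled. They had a median of 7 kb, 0.58 CpGs per 100 bp and 31 tested CpGs, against 10 kb, 0.933 and 83 over all shared regions, and 12.5% held a gene start. The share called in either direction was 13.2% at under 0.5 CpGs per 100 bp, 3.50% at 0.5 to 1 and 1.36% at 1 to 2. Among the 527 regions with at least 2 CpGs per 100 bp, 16 (3.04%) were higher and 0 were lower, with median levels of 31.0% in the young and 34.3% in the old library. These calls rest on summed levels, and over all regions tested 2.59% were higher and 2.73% lower. Regions with gene starts were less methylated than those without. The median was 78.0% and 77.7% in the young and old library for regions with no start, 52.4% and 54.6% with 1 start, and 48.0% and 49.9% with at least 2.

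Methylation in shared regions fell steeply with CpG density in both libraries. Density was the number of CpGs within 100 bp on each side, the CpG itself included, over 2621494 CpGs. At 1-2 CpGs the summed level was 77.4% in the young and 77.0% in the old library, at 3-5 it was 75.9% and 75.6%, and at 6-10 it was 62.6% and 63.8%. At 11-20 CpGs it was 17.9% and 20.1%, and above 20 it was 6.03% and 6.47%. The difference, old minus young, was thus -0.41 and -0.28 points in the sparse classes and 1.14, 2.26 and 0.446 points in the denser ones. The gain in the denser classes was not particular to shared regions. Outside every H3K27me3 region the differences were 0.325 and 0.279 points in the sparse classes and 1.27, 3.09 and 0.254 in the denser ones. At 11-20 CpGs the difference was 3.38 points in young-only, 4.03 in old-only and 1.51 in the widest regions. Averaged over CpGs with equal weight instead, the level in shared regions at 6-10 CpGs was 66.2% in the young and 65.5% in the old library. At 11-20 CpGs it was 23.9% and 24.0%. That change of weight turned the direction at 6-10 CpGs and over all CpGs, where the summed levels were 61.4% and 63.3% and the equal-weight means 69.8% and 69.1%.

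Outside every H3K27me3 region the same classes were more methylated, save the densest. The equal-weight means there were 82.1% in both libraries at 1-2 CpGs, 77.5% and 77.4% at 6-10, 36.2% in both at 11-20, and 5.46% and 5.50% above 20 CpGs. In the class of 11-20 CpGs, 67.6% of CpGs in shared regions were at or below 20% methylation in the young and 68.9% in the old library, against 59.1% and 60.6% outside. The equal-weight mean of sparse CpGs at 1-2 was 78.1% and 77.3% in shared regions. The level over all CpGs of each library with 5 to 100 reads was 67.3% in the young and 68.2% in the old library, and the median coverage of a CpG was 16 and 18 reads. The tests cover counting error only, since each age has 1 bisulfite library.

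**Figure D3:**
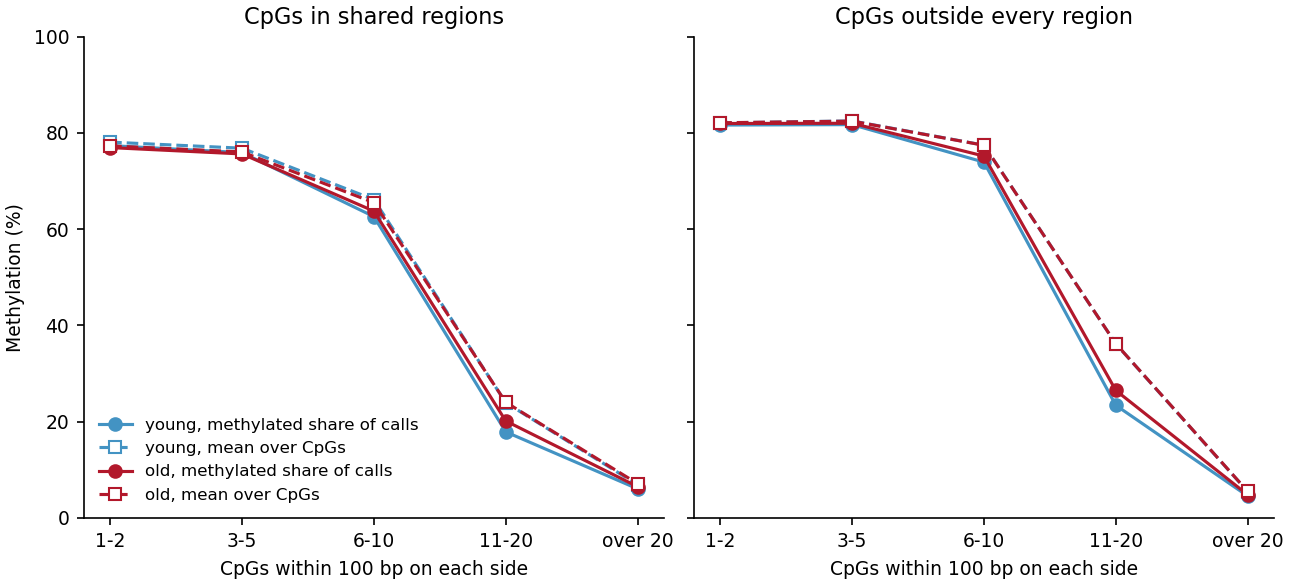
CpG methylation (vertical axis, %) by the number of CpGs within 100 bp on each side (horizontal axis) in shared regions (left) and outside every region (right), as the methylated share of calls (filled points) and as the mean over CpGs (open squares), in the young and old library. In shared regions the share of calls goes from 77.4% and 77.0% at 1-2 CpGs to 6.03% and 6.47% above 20, and the libraries lie close together in every class.

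At gene starts, methylation in shared regions was higher than at starts without the mark. Within 500 bp of the start the median level was 15.3% in the young and 15.5% in the old library over 4156 genes with enough CpGs, against 6.40% and 5.96% for genes in no region. A level of at most 20% was found at 54.4% of starts in shared regions in either library, against 77.1% and 77.7% of starts in no region. Starts in shared regions had fewer CpGs, with a median of 3.20 against 5.09 per 100 bp. Split by density, their median was 73.4% and 72.8% at under 2 CpGs per 100 bp, 15.9% and 15.7% at 2 to 5, and 6.37% and 6.59% at 5 or more. Starts with an H3K4me1 peak of the young list within 2 kb had a median of 8.05% and 8.13%, and those without 68.2% and 68.3%. These groups also differed in density, with a median of 5.59 against 1.40 CpGs per 100 bp, and the part of density was not tested.

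Single genes mostly followed the same division, with exceptions. Of the denser starts, Neurog3 was at 4.60% and 8.08% in the young and old library, Hhex at 12.3% and 5.28%, Gad1 at 8.39% and 3.47%, Sox9 at 5.14% and 6.55%, and Cdkn2a at 5.57% and 4.73%. Some starts of a density near that of Neurog3 were higher: Plvap, with the same 4.30 CpGs per 100 bp, was at 66.2% and 60.2%, Slc5a1 at 37.7% and 51.4%, and Dkk3 at 32.0% and 47.8%. The CpG-poor starts of Ppy (81.5% and 89.9%), Gcg (71.3% and 56.1%) and Trpm5 (66.6% and 68.2%) were methylated, as were those of the acinar genes Cpa1 (85.8% and 91.4%) and Cela2a (79.8% and 76.4%), whereas the CpG-poor start of Lin28b was at 10.2% and 14.2%. Of the 6 promoters printed above, the 3 with 17 to 32 CpGs belong to starts of low methylation and the 3 with 4 to 7 CpGs to the methylated ones. Gene body flanks in shared regions were less methylated than elsewhere. In the bin of 500 bp centred 3250 bp downstream of the start the level was 56.7% and 58.5% for starts in shared regions and 74.98% and 75.5% for starts in no region, while within the first 500 bp downstream it was 12.6% and 13.9% against 6.94% and 7.22%.

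**Figure D4:**
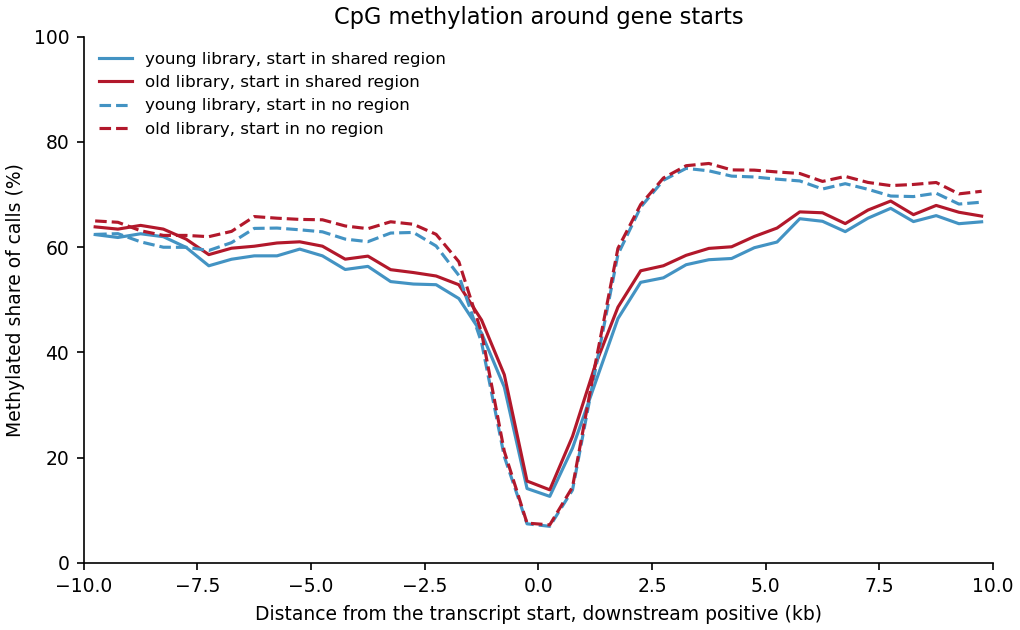
Methylated share of CpG calls (vertical axis, %) in bins of 500 bp by distance from the transcript start (horizontal axis, kb, downstream positive), for 4406 starts in shared regions and 12491 starts in no region, in the young and old library. Both kinds of start dip at the start. The curves of shared regions are the higher ones in the first 1 kb downstream and the lower ones from the bin centred 1250 bp downstream onwards, at 56.7% and 58.5% against 74.98% and 75.5% in the bin centred 3250 bp downstream.

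H3K4me1 peaks lay in a minority of shared regions, and more often there than in young-only regions. Of 20149 regions, 5521 (27.4%) overlapped a peak of the young list, 2863 (14.2%) a peak of the old list, and 2568 (12.7%) both, while 71.1% overlapped neither. In young-only regions the shares were 11.2% and 4.95%, and in old-only regions 19.6% and 12.5%. The lists differ in length, with 77291 young and 36207 old peaks, so 27.4% and 14.2% do not compare the ages. With the best-scored 36207 young peaks, 14.4% of shared regions had a young and 14.2% an old peak, and young-only regions stood at 4.32% and 4.95%. Per megabase, shared regions held 15.9 and 13.9 peaks with equal numbers, young-only regions 7.64 and 7.68, and old-only regions 20.8 and 19.7, the highest of the 3 classes. The share of old-only regions with a peak was then 11.9% and 12.5%. H3K4me1 overlap went with width and gene starts: 11.1% of regions of 5 to 9 kb, 30.4% of 10 to 19 kb, 49.9% of 20 to 39 kb and 71.7% of those of at least 40 kb had a young peak. It was 18.6% without a start, 65.1% with 1 and 74.4% with at least 2.

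**Figure D5:**
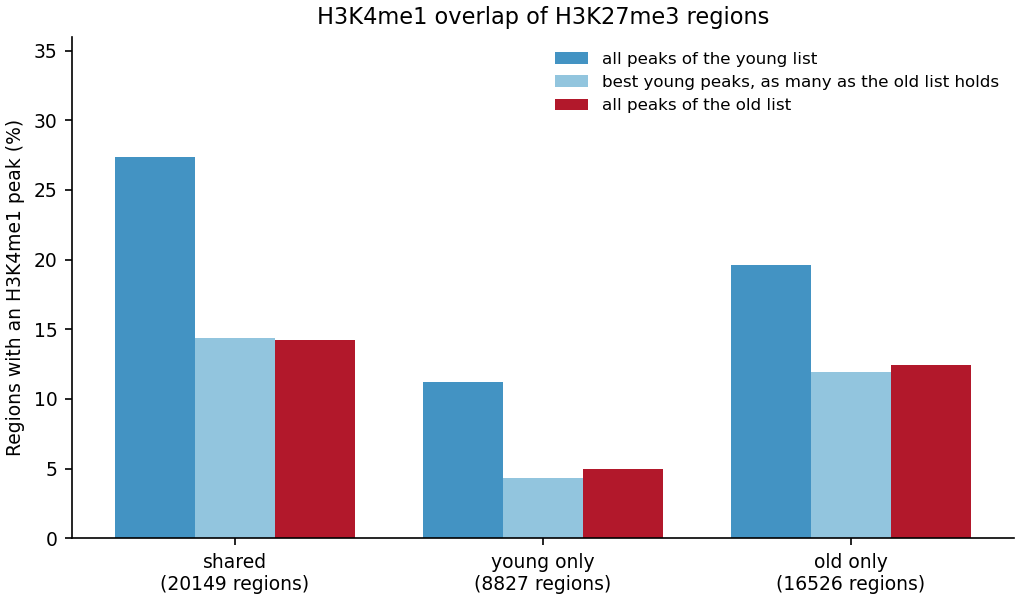
Share of H3K27me3 regions that overlap an H3K4me1 peak (vertical axis, %, from 0) in shared, young-only and old-only regions (horizontal axis), for all young peaks, as many best-scored young peaks as the old list holds, and all old peaks. In shared regions the bars are 27.4%, 14.4% and 14.2%, so the young and old lists are nearly level once they are of equal length.

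Starts of member genes had an H3K4me1 peak within 2 kb in 52.6% of cases in the young and 33.0% in the old list, against 57.2% and 42.6% for genes in no region. H3K27ac was scarce, in 250 shared regions (1.24%), 0.680% of young-only and 8.46% of old-only regions, and within 2 kb of 3.61% of member starts against 49.3% of starts in no region. CpGs within 250 bp of young H3K4me1 peaks in shared regions were lowly methylated. The level was 9.30% in the young and 9.43% in the old library around the 2047 peaks also found in the old list, and 12.9% and 13.4% around the 8601 found in the young list only. Around peaks outside all regions it was 21.9% and 20.8% for 8242 peaks in both lists, and 29.7% and 28.7% for 44061 in the young list only. Single peaks were compared where at least 3 CpGs were tested, which held for 1992 and 7863 peaks of the 2 kinds in shared regions and for 6747 and 31063 outside. Of these, 11.9% and 18.0% were lower by at least 10 points in the old library in shared regions, against 27.7% and 29.4% outside, and 5.42% and 9.44% were higher by as much, against 11.1% and 12.9%. The surroundings of peaks in shared regions were denser in CpGs, with 4.64 and 3.37 per 100 bp against 1.83 and 1.40, and the part of density in this contrast was not tested.

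Single shared regions show the extremes of this pattern. The largest gain of methylation was at chr7:70129001-70135000, which holds no gene start, from 40.4% to 82.7% over 10 CpGs with 146 and 127 calls (Wilson 95% intervals 32.8% to 48.5% and 75.2% to 88.3%). The largest loss was at chr2:9058001-9064000, also without a start, from 64.5% to 36.3% over 11 CpGs (56.4% to 72.0% and 29.4% to 43.7%). The 5 largest gains and 5 largest losses were all in regions of 5 to 8 kb with 10 to 21 tested CpGs and no gene start.

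Wide and CpG-dense regions had small or mixed differences. Of the 5 shared regions tied as the widest, at 74 kb, the region with Sox11, a neural factor, at chr12:27969001-28043000 was at 29.2% in both libraries. The region with the start of the imprinted gene Grb10 at chr11:11907001-11981000 was at 27.7% and 36.7%, and with equal weight per CpG at 45.3% and 48.2%. The region with the most gene starts, chr7:3214001-3224000, holds 8, among them the embryonic microRNA cluster Mir290 to Mir295, and was at 39.2% and 44.6%. The densest, at chr11:74976001-74984000 with 5.46 CpGs per 100 bp, holds the start of Hic1, a tumour suppressor gene prone to hypermethylation, and was at 17.6% and 21.5%, or 29.1% and 29.7% with equal weight per CpG. The region of Dgat1 and Scrt1 at chr15:76342001-76356000, in which Scrt1 rose, was at 22.7% and 23.0%. The region of Tmem200b at chr4:131475001-131484000 was at 31.1% and 44.9%, and at 41.1% and 49.2% with equal weight, and it was the only 1 of these 3 dense regions to be called.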

How the data were processed

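Regions, peaks and CpGs were analysed on mm9 and autosomes. The members and gene lists were chosen with earlier results of these data known. Tools listed in the submitters' processing notes are Bowtie 0.12.7, CASAVA 1.8.2, HOMER, STAR and edgeR, without roles. The authors deposited whole-number read counts per RefSeq transcript, in which 1 read can count towards several transcripts of a gene. The transcript with the highest total stood for a gene, so its start placed the gene. A second table, deposited as a signal of unknown scale, had identical columns for old library 3 and the shallower young library and served only for transcript positions. No source used here gives the strand setting or the H3K27me3 caller. The H3K27me3 lists were deposited with an unlabelled score and p-value column, and the score served only for ranking. HOMER called the peaks of H3K4me1 and H3K27ac against input, per the file headers, at a false discovery rate of 0.01, 2-fold over input and a p-value of 0.0001, with a score per peak. The deposited CpG tables give a methylated fraction and a read count per CpG, and the products of both were whole numbers within 1.9e-08. No source used here describes a correction for incomplete conversion.

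RNA of 3 old and 2 young libraries was compared with edgeR 4.0.16 (quasi-likelihood, TMM, filterByExpr; R 4.3.3), two-sided, with Benjamini-Hochberg adjustment over all genes tested and a threshold of 0.05. Each library is a pool of mice per the design text, so p-values measure the spread between libraries. In the old group these also differ in age, at 15, 16 and 17 months. CPM carry no TMM factor. Folds against a group without counts are limits computed with 3 counts over its libraries. Methylation was tested per region with Fisher's exact test (scipy 1.17.1) on calls summed over CpGs with 5 to 100 reads in both libraries, in regions with at least 5 such CpGs, adjusted over all regions tested, and called at 10 points or more. Wilson intervals (95%) cover counting error only. PCR duplicates cannot be told from independent molecules.

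Named genes were the 8 largest rises and falls among called genes with at least 5 CPM in a group, separate groups and no clone name, at most 3 called genes per list or family, and a set of islet and Polycomb genes in any case. Named regions were the 5 largest methylation gains and losses with at least 10 tested CpGs, and 3 each of the widest (of 5 tied), richest in starts and densest. The other rises, the promoters printed, the region split bounds and the windows around starts and peaks were chosen after values were seen. Some list members are counted but not reported by name here. The scripts were tested on simulated data. DESeq2 1.42.0, other normalization, filters, coverage limits, overlap rules and left-out libraries were tried as alternatives.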

Additional observations from a re-analysis of the deposited data

How the results depend on the processing

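The direction of the RNA difference was kept under every alternative run, and its counts were not. Genes in shared regions that fell numbered 594 as reported, 1232 with DESeq2, and 141 to 1066 when 1 library was left out. Those that rose numbered 20 as reported, 51 with DESeq2, and 1 to 92 when 1 library was left out. The median log2 change of tested genes in shared regions was -2.92 as reported and -3.03 with RLE size factors. With RLE size factors the median over all genes went from -0.05 to -0.17. For genes in shared regions it was -3.46 with no filter, -4.06 with DESeq2 and -3.06 over regions covered at least 50%. When 1 library was left out it was -2.99 to -2.61. No named gene changed sign under any alternative run. No paired analysis was possible because the young RNA columns carry no replicate number.

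With a reciprocal overlap of at least 50%, 8751 regions were shared in place of 20149. At a difference of at least 20 points, 11 regions were lower and 12 higher in the old library, and with the mean of CpG fractions 174 were higher and 268 lower in place of 344 and 361, with a median difference of -0.604 in place of 0.085 points, so reversed. By density, old minus young in points with a window of 250 bp was -0.157 at 1-2 CpGs, -0.399 at 3-5, -0.417 at 6-10 (1.14 as reported, so reversed), 0.385 at 11-20 and 1.31 above 20. With at least 10 reads it was -0.205, -0.191, 1.02 and 2.06 in the first 4 classes and 1.81 over all CpGs. With the mean of CpG fractions, chosen after seeing the data, it was -0.788, -0.775, -0.640 (reversed), 0.0796 and 0.210 in the 5 classes and -0.670 over all CpGs (1.93 as reported, so reversed). The cause was not tested. The share of shared regions with an H3K4me1 peak was 14.4% with the same number of young peaks and 15.1% with the best-scored 50% of the young list, 7.35% with the best-scored 50% of the old list, and the H3K27ac share 0.754% with the best-scored 50%, where fewer peaks were used by construction.

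Depth limits these results: the shallower young RNA library holds 6377619 gene counts, and each histone mark and bisulfite sample has 1 library per age, so differences between regions of the lists or levels of the libraries carry no replicate error.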

Other observations

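RNA of genes for enzymes that write, read and remove the mark, and of DNA methyltransferases, was measured in the same fit. Of 21 tested PRC1 genes 1 rose and 1 fell, and of 12 PRC2 genes 0 rose and 1 fell. Of 13 H3K27 demethylase and H3K4 methyltransferase genes 1 rose and 1 fell, and of 15 DNA methylation genes 0 rose and 1 fell. Over all genes tested, 3.17% rose and 7.93% fell. Bmi1, a PRC1 subunit, stood at 21.6 and 25.9 CPM in young and 68.3, 48.1 and 52.7 CPM in old cells, and rose by 1.40 on the log2 scale (SE 0.33, edgeR adjusted p 0.0351). Ezh2, the catalytic subunit of PRC2 in dividing cells, stood at 6.43 and 11.1 CPM in young and 7.72, 6.02 and 2.97 CPM in old cells (log2 change -0.52, adjusted p 0.677), and the groups overlapped. Its partners Eed (log2 change 0.86, adjusted p 0.383) and Suz12 (0.73, adjusted p 0.132), the demethylase Kdm6b (-0.81, adjusted p 0.149) and the DNA methyltransferases Dnmt1 (0.02, adjusted p 0.991) and Dnmt3a (0.17, adjusted p 0.740) were not called.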
